A study of Homo sapiens with 12 samples.

Results

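Gene expression after RNF2 knockdown was compared with expression after a non-targeting siRNA in NCCIT cells, across every gene that had an array feature of its own. The comparison used 4 of the 12 arrays examined here, 2 from cells given siRNA against RNF2 (siRNF2) and 2 from cells given a negative control siRNA (siNTC), and it covered 18417 genes. NCCIT is an established human embryonal carcinoma line of germ cell origin whose transcriptome resembles that of pluripotent stem cells. All cells were grown in serum-containing McCoy's medium, and 250 ng of total RNA was labelled for each Affymetrix Human Gene ST array. The siRNA against RNF2 was a commercial pool, a mixture of several siRNAs against 1 transcript. The other arrays, also 2 per group, came from cells given siRNA against EED (siEED), against EED and RNF2 together (siEED+RNF2), against WDR5 (siWDR5) or against SETD2 (siSETD2), and they are used here only to show where siRNF2 differed. By the study's methods, siEED+RNF2 cells received both pools and a larger volume of transfection reagent than cells given a single pool, so dose and target cannot be told apart in that group. The labels mark both siNTC arrays as re-analysed. No source used here says that replicates were separate cultures. The p-values therefore rest on the variation among these arrays, which may be technical.

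RNF2, also known as RING1B, is the ubiquitin ligase of Polycomb repressive complex 1 (PRC1), which places ubiquitin on histone H2A at silent developmental genes. PRC1 occurs in canonical forms, which contain a CBX protein that reads the H3K27me3 mark made by PRC2, and in variant forms, which contain RYBP or YAF2 in its place. EED is the subunit of PRC2 that binds H3K27me3. In embryonic stem cells both complexes occupy genes for transcription factors of development, including the HOX clusters, and depletion of either can release some of these genes from repression.

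The level of RNF2 itself was not analysed here, since the annotation used here names no transcript cluster for it. The comparison therefore follows the labels without a check of the target in these arrays. By PCR and western blot, the paper reports less RNF2 mRNA and less ubiquitin on histone H2A after this siRNA. The embryonal carcinoma identity of the cells was checked with pluripotency genes. SOX2 was 12.70 and 12.68 on the log2 scale in the siRNF2 arrays and 12.78 and 12.76 in siNTC, DPPA4 was 11.47 and 11.56 against 11.54 and 11.52, and L1TD1 was 11.15 and 11.17 against 11.49 and 11.39. LIN28A was 11.90 and 11.82 in siRNF2 and 12.33 and 12.22 in siNTC, and SALL4 was 10.70 and 10.64 against 10.98 and 11.07. All 5 genes stayed far above the array medians of 6.29 to 6.36 in both groups, and none passed the test between them. DPPA4 and L1TD1 were chosen after their values were seen. Of 24 measured pluripotency factors 1 was called higher, DPPA3 (1.55), and 1 lower, GDF3 (-0.59). Each is 4.17% of the list, beside 6.37% of all genes higher and 3.81% lower. With quantile normalization 0 of the 24 were lower. POU5F1, NANOG and TDGF1 were not analysed here. Replicate arrays correlated at 0.99597 to 0.99696 over all transcript clusters, and the nearest array of another group reached 0.99517 with siRNF2 and 0.99048 with siNTC.

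Of the 18417 genes, 1875 (10.2%) passed the test between siRNF2 and siNTC. To pass, a gene needed a limma p-value under 0.05 after Benjamini-Hochberg adjustment and a level differing by 1.5-fold or more. Differences below are log2 fold changes, siRNF2 minus the group named. Expression rose at 1174 genes (6.37%) and fell at 701 (3.81%), so that 62.6% of the changed genes were higher in siRNF2. Log2 fold changes reached 4.27 upward and -2.76 downward, and the median over all genes was -0.04. A rise to at least 2 times the control level was found at 308 genes and a fall of that size at 115. In all 1875 changed genes both siRNF2 arrays lay beyond both siNTC arrays, but this separation was common, since it held for 13114 genes (71.2%). The balance of directions depended on how arrays were scaled. With gene centring, which subtracts the median gene level from an array, the median log2 fold change moved to -0.17, and 775 genes were higher and 1253 lower (38.2% higher). With quantile normalization the split was 1287 to 608 (67.9% higher). When the mean of siWDR5, siEED and siSETD2 replaced siNTC as the reference, 453 genes were higher and 127 lower (78.1% higher), and this alternative is called the knockdown reference below.

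**Figure D1:**
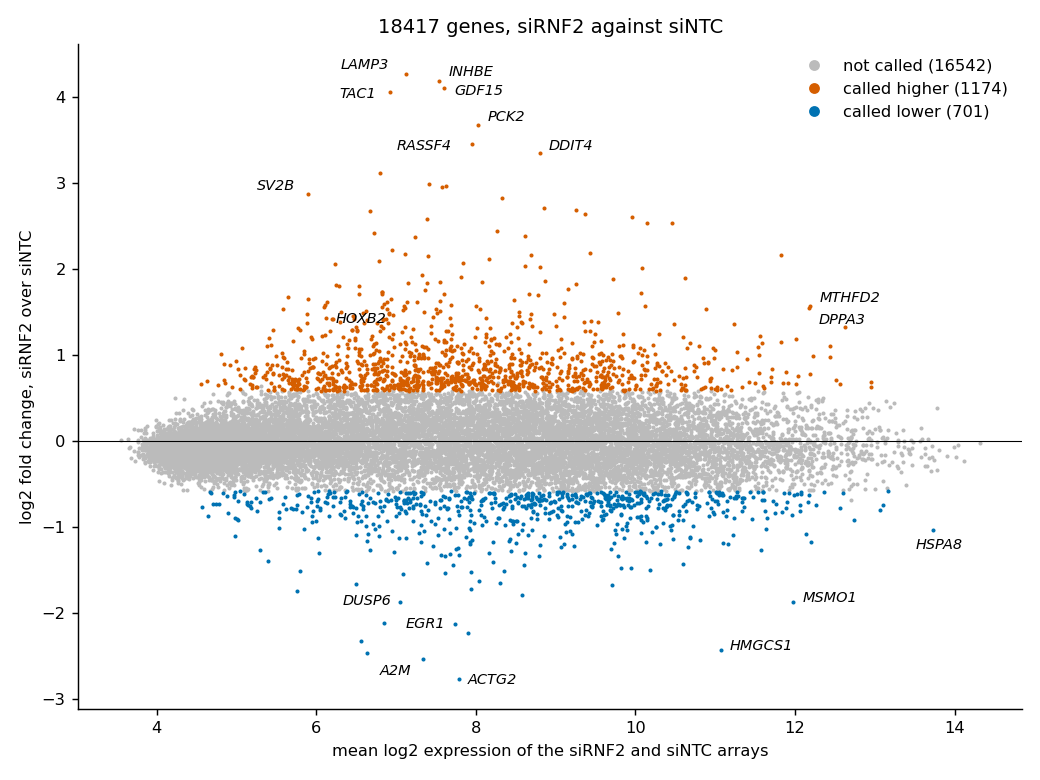
Each point is 1 of 18417 genes, placed by its mean log2 expression over the 2 siRNF2 and 2 siNTC arrays (horizontal axis) and by its log2 fold change, siRNF2 over siNTC (vertical axis). Orange points are the 1174 genes called higher, blue points the 701 called lower and grey points the genes not called, and the highest fold changes (LAMP3 at 4.27) exceed the deepest falls (ACTG2 at -2.76) in size.

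The largest increase of the comparison was that of LAMP3. This lysosomal membrane protein, induced by stress and known from mature dendritic cells, was 9.48 and 9.03 in the siRNF2 arrays and 5.04 and 4.94 in siNTC. The difference was 4.27 (standard error, SE, 0.15, limma adjusted p = 2.8e-09), a 19.3-fold increase. GDF15, a secreted stress cytokine of the TGF-beta family, was 9.62 and 9.68 against 5.56 and 5.53, a difference of 4.11 (SE 0.09, limma adjusted p = 5.9e-11). TAC1, the precursor of the neuropeptide substance P, was 8.86 and 9.06 against 4.96 and 4.84, and it rose by 4.06 (SE 0.11, limma adjusted p = 3.7e-10). For these 3 genes the control arrays lay below the array medians and the siRNF2 arrays well above them, with no overlap. INHBE, an activin beta chain, was 9.71 and 9.56 in siRNF2 and 5.50 and 5.40 in siNTC (log2 fold change 4.19), and RASSF4, a Ras-association domain protein, was 9.66 and 9.70 against 6.14 and 6.33 (3.45). Their increases were 18.3-fold and 10.9-fold, again with no overlap, which held at every gene that passed the test.

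The same genes were read in the other knockdowns against the same siNTC arrays. LAMP3 differed from siNTC by 2.02 in siEED, 2.60 in siEED+RNF2, 0.51 in siWDR5 and -0.11 in siSETD2. GDF15 differed by 2.60, 3.24, 1.09 and 0.57 in that order, and TAC1 by 1.63, 1.64, 0.92 and -0.03. These differences share the siNTC arrays with the siRNF2 comparison. LAMP3, GDF15 and TAC1 were picked for their response in the comparison with siNTC. The direct comparisons share its siRNF2 arrays but not its siNTC means, although the siNTC arrays contribute to the shared estimate of spread. In them LAMP3, GDF15 and TAC1 were higher in siRNF2 than in siEED by 2.24, 1.51 and 2.43 and higher than in siEED+RNF2 by 1.67, 0.86 and 2.42 (adjusted p of 3.7e-05 or lower in limma). INHBE was higher than in siEED by 0.80 (limma adjusted p = 0.0012), and its difference from siEED+RNF2 was 0.29 (SE 0.11, limma adjusted p = 0.11).

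**Figure D2:**
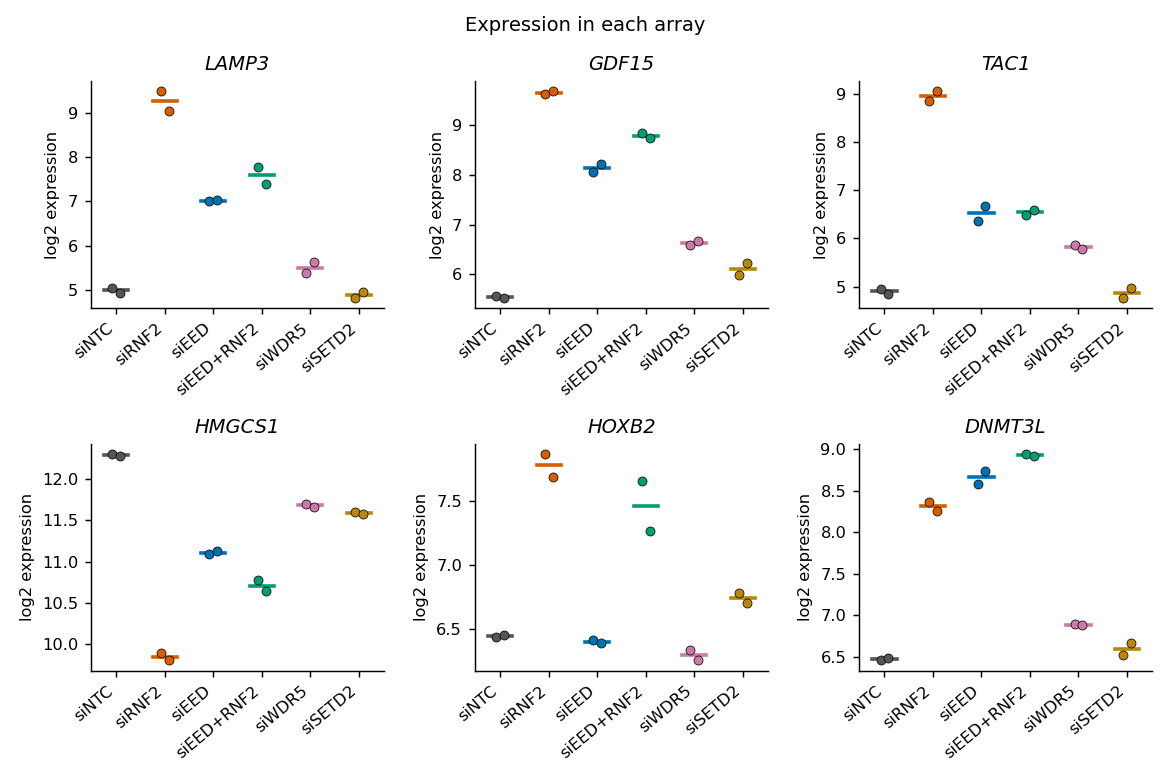
Log2 expression (vertical axes) of 6 genes in each of the 12 arrays, by siRNA group (horizontal axes), where points are arrays and bars are means of 2. LAMP3, GDF15 and TAC1 are highest and HMGCS1 lowest in the siRNF2 arrays, HOXB2 is high in siRNF2 and siEED+RNF2, and DNMT3L is high in siRNF2, siEED and siEED+RNF2.

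The integrated stress response is a pathway in which kinases that sense amino acid shortage, unfolded protein or other stress phosphorylate eIF2alpha, which raises translation of the transcription factor ATF4 and thereby transcription of its targets. Of 27 measured regulators and targets of this response, 19 rose (70.4%, against 6.37% of all genes) and 0 fell, with a median log2 fold change of 1.5 against -0.04 over all genes. The list was written with earlier results of these data known, and it holds LAMP3, which was picked for its response. Its share therefore describes the list and does not test the pathway. Both siRNF2 arrays lay above both siNTC arrays at 24 of the 27, beside 31.4% of all genes. Without the fold limit and the adjustment, 23 had a limma p under 0.05 upward and 1 downward. That limit is wide, since 3852 of all 18417 genes were higher and 4075 lower without a fold limit even after adjustment. The member that was lower was EIF2AK4, an eIF2alpha kinase (9.09 and 8.98 against 9.35 and 9.31, -0.30). DDIT4, an inhibitor of mTORC1, was 10.49 and 10.45 in siRNF2 and 7.20 and 7.05 in siNTC, and it rose by 3.35. TRIB3, a pseudokinase that binds ATF4, rose by 2.96, from 6.17 and 6.11 to 9.0 and 9.20. CHAC1, which degrades glutathione, rose by 2.64, from 8.04 and 8.05 to 10.67 and 10.70. TXNIP, an inhibitor of thioredoxin and glucose uptake, rose by 2.53, and SESN2, which restrains mTORC1 when leucine is low, by 2.39. The siRNF2 arrays stood clear of the controls at each of these genes, as at every gene that passed the test. ATF4 mRNA was 11.65 and 11.71 in siRNF2 and 11.36 in both siNTC arrays, a difference of 0.32 that did not reach the fold limit. FGF21, a hormone that ATF4 can induce, was 4.53 and 4.59 against 4.47 and 4.45 and stayed at the lower end of the array range.

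Relative to siNTC, the median of these 27 genes was 1.17 in siEED, 1.63 in siEED+RNF2, 0.51 in siWDR5 and -0.04 in siSETD2. Tested directly, 4 of the 27 were higher in siRNF2 than in siEED, beside 0.793% of all genes. Compared with siEED+RNF2, 2 were higher (7.41%), beside 3.03% of all genes. In either test 0 were lower. CHAC1 differed from siEED by 0.07 (SE 0.07, limma adjusted p = 0.65) and from siEED+RNF2 by -0.12 (SE 0.07, limma adjusted p = 0.33). TRIB3 was higher than in siEED by 0.70 and 0.37 above siEED+RNF2, the second below the fold limit.

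Enzymes that make amino acids and one-carbon units rose in part. Of 27 measured, 11 were higher (40.7%, against 6.37% of all genes) and 0 lower, with a median of 0.34. Before adjustment, 17 upward and 3 downward had a limma p under 0.05. This limit too is wide, since 3852 of all 18417 genes were higher and 4075 lower without a fold limit even after adjustment. PCK2, the mitochondrial phosphoenolpyruvate carboxykinase, was 9.86 and 9.88 in siRNF2 and 6.14 and 6.24 in siNTC, and its log2 fold change of 3.68 (SE 0.06, limma adjusted p = 2.6e-11) was the largest of the list. ALDH1L2, a mitochondrial folate enzyme, rose by 2.71, from 7.39 and 7.61 to 10.26 and 10.16. ASNS, asparagine synthetase, rose by 1.90, PSPH and PSAT1 of serine synthesis by 1.72 and 1.19, MTHFD2 of mitochondrial folate metabolism by 1.57, CTH, which makes cysteine, by 1.54 and ASS1, argininosuccinate synthase, by 1.10. As at every gene that passed the test, the siRNF2 and siNTC arrays did not overlap at any of these. PCK2 was also higher in siRNF2 than in siEED by 0.59, which fell under the fold limit without siRNF2 replicate 2 (0.58) or siEED replicate 1 (0.58). With gene centring this difference was 0.54, also under the limit.

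Among 26 amino acid transporters 10 rose (38.5%, against 6.37% of all genes) and 1 fell (3.85%, against 3.81%). With the knockdown reference 6 rose and 0 fell. SLC1A4, a transporter of alanine, serine and cysteine, was 9.15 and 8.98 in siRNF2 and 6.19 and 6.02 in siNTC, a difference of 2.96. SLC7A5, the light chain of the LAT1 leucine exchanger, was 11.70 and 11.75 against 9.23 and 9.13 (2.54), and SLC3A2, its heavy chain, was 11.74 and 11.66 against 10.82 and 10.87 (0.86). The glycine transporter SLC6A9 rose by 1.71, SLC43A1 by 1.44, the cystine transporter SLC7A11 by 1.22 and the cationic amino acid transporters SLC7A1 and SLC7A3 by 1.10 and 1.06. With the knockdown reference, the values of SLC7A11, SLC7A1 and SLC3A2 were 0.55, 0.36 and 0.43, under the fold limit. SLC7A8, another light chain that pairs with SLC3A2, was 10.23 and 10.28 in siRNF2 against 10.98 in both controls, and it fell by 0.73 and stood at -0.36 with the knockdown reference, under the fold limit.

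Aminoacyl-tRNA synthetases load amino acids on their tRNAs, and the cytosolic and mitochondrial enzymes are mostly encoded by separate genes. Of 19 cytosolic enzymes 5 rose (26.3%, against 6.37% of all genes) and 1 fell (5.26%, against 3.81%), and with the knockdown reference 2 rose. AARS1 rose by 1.37, from 10.51 and 10.60 to 11.96 and 11.88, and WARS1 by 1.14, GARS1 by 1.10, CARS1 by 1.03 and SARS1 by 0.76, and the values of GARS1, CARS1 and SARS1 with that reference were 0.33, 0.33 and 0.40. FARSA, a phenylalanine enzyme subunit, was 9.93 and 9.89 in siRNF2 and 10.51 and 10.56 in siNTC, and it fell by 0.62. Of 16 mitochondrial enzymes 0 rose in limma (3 upward at an unadjusted p under 0.05) and 1 fell, MARS2, from 8.27 and 8.32 to 7.54 and 7.71 (-0.67). FARSA and MARS2 stood at -0.36 and -0.33 with the knockdown reference. Whether the cytosolic and mitochondrial lists differ was not tested.

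ATF4 acts with C/EBP partners at a composite element written TGATGNAA (TTNCATCA on the other strand), which was searched on both strands of RefSeq promoters of GRCh38.p14, from 250 bases before to 50 after the start site. A promoter was given for 14237 of the genes tested, and 361 of these (2.54%) held the element. The 4 lists of stress regulators, amino acid enzymes, transporters and cytosolic synthetases together have 99 measured members, of which 77 (77.8%) had a promoter, too few for the share to stand as a check over the lists. Among those 77 the element was found in 7 of 34 members that rose and in 10 of 41 that were not called. Of all 914 promoters of genes called higher, 28 (3.06%) held it. Windows of 30 bases are shown for the 3 members that rose, are described above and hold it entirely before the start site. They give its place beside the response, with the element in capitals and each written in the direction of the gene.
ASNS, minus strand, chr7:97872458-97872487: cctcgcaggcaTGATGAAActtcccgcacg
CHAC1, plus strand, chr15:40953251-40953280: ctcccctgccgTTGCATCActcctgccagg
AARS1, minus strand, chr16:70289675-70289704: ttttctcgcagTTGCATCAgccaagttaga
The first base of the element lies at -68, -209 and -187 from the start of ASNS, CHAC1 and AARS1, on the coding strand of ASNS and on the opposite strand of CHAC1 and AARS1. CARS1, SLC7A1 and SLC3A2 also held it, within 2 bases of the start site or after it. A match is a description of letters and no evidence of binding in these cells.

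Other branches of the stress response were described by their own lists. Of 27 ER chaperones and genes of the unfolded protein response, 5 rose (18.5%, against 6.37% of all genes) and 2 fell, with a median of -0.13. With quantile normalization 5 rose and 0 fell, with gene centring 3 rose and 4 fell, and with the knockdown reference 2 rose and 0 fell. CLGN, a calnexin-like chaperone best known from the testis, was 8.39 and 8.33 in siRNF2 and 5.17 and 5.32 in siNTC, a difference of 3.12 (SE 0.11, limma adjusted p = 2.8e-09). HERPUD1 of ER-associated degradation rose by 1.10 and ATF6, a sensor of ER stress, by 0.75, and HERPUD1 stood at 0.47 with the knockdown reference. HSPA5, the ER chaperone BiP, was 11.77 and 11.72 against 12.06 and 12.02 (-0.30), and DNAJB9, its cochaperone, was 7.41 and 7.15 against 7.81 and 7.64 (-0.45), both under the fold limit. Across the list of 27 the arrays of siRNF2 lay above those of siNTC at 9 genes and below at 14, beside 31.4% and 39.8% of all genes. Of 11 cytosolic heat shock proteins 0 rose and 2 fell (18.2%, against 3.81% of all genes). HSPA8, the constitutive HSC70, was 13.22 and 13.20 in siRNF2 and 14.24 and 14.26 in siNTC, and it fell by 1.04. DNAJA1, an HSP40 partner, fell by 0.90 and stood at -0.43 with the knockdown reference. With gene centring 5 of the 11 fell.

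Among 14 mitochondrial chaperones and proteases LONP1 rose by 0.82 and the others were not called. Of 23 oxidative stress and glutathione genes 0 rose, and NQO1, a quinone reductase induced by NRF2, fell by 0.69, from 10.75 and 10.67 to 10.07 and 9.97. Under the knockdown reference LONP1 stood at 0.35 and NQO1 at -0.084, and neither passed. Of 19 regulators of mTORC1, which couples amino acids to growth, 4 rose (21.1%, against 6.37% of all genes) and 1 fell (5.26%, against 3.81%). With the knockdown reference 2 rose. DDIT4 and SESN2 are counted in this list as well as in the stress list. DEPTOR, an inhibitor bound to mTOR, rose by 1.17, RRAGC, a Rag GTPase, by 0.82, and RRAGD, its paralog, fell by 0.74. DEPTOR, RRAGC and RRAGD stood at 0.58, 0.32 and -0.45 with the knockdown reference, all under the fold limit. Of 36 lysosome and autophagy genes 3 rose (8.33%), LAMP3, WIPI1 of autophagosome formation (8.32 and 8.29 to 9.93 and 9.89, a rise of 1.60) and the protease CTSB (0.87, and 0.50 with the knockdown reference), and the median was 0.08. LAMP3 is again a member of both this list and the stress list.

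**Figure D3:**
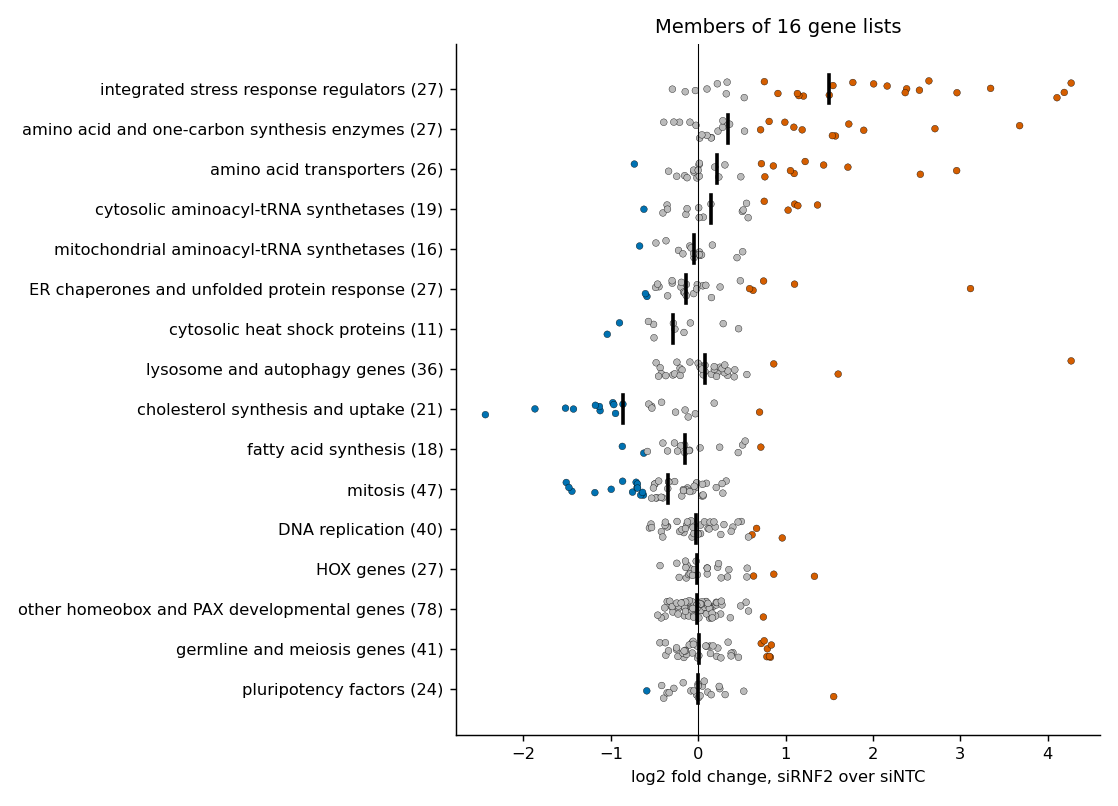
Log2 fold change, siRNF2 over siNTC (horizontal axis), for the measured genes in 16 lists (rows, with the number measured), where orange is called higher, blue called lower, grey not called and the black bar the median of the list. The stress regulators have a median of 1.5, the cholesterol genes one of -0.86, and most other lists lie around 0.

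In cholesterol synthesis 11 of 21 measured genes fell. Cells build cholesterol from acetyl-CoA through mevalonate, squalene and lanosterol, and the transcription factor SREBP2 drives the enzymes when sterols are low. The 11 that fell made 52.4% of the list, against 3.81% of all genes, and 1 rose, with a median of -0.86. Both siRNF2 arrays lay below both siNTC arrays at 18 of the 21, beside 39.8% of all genes. This list too was written with earlier results known, and it holds HMGCS1, which was picked for its response. HMGCS1, which makes the precursor of mevalonate, was 9.90 and 9.81 in siRNF2 and 12.30 and 12.28 in siNTC. The difference was -2.44 (SE 0.07, limma adjusted p = 3.7e-10), a 5.41-fold decrease. Next in the pathway, MVK was 6.57 and 6.56 against 7.72 and 7.66 and fell by 1.12, MVD fell by 0.86 and IDI1 by 0.98. MVD stood at -0.36 with the knockdown reference, under which 9 of the 21 genes fell and 0 rose. PMVK, between MVK and MVD, was 7.41 and 7.48 against 6.75 and 6.73, and it rose by 0.70, which dropped under the fold limit with gene centring (0.57) and with the knockdown reference (0.33).

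After the mevalonate steps, SQLE, which oxidizes squalene, fell by 1.13, from 11.27 and 11.22 to 10.15 and 10.09, and LSS, which closes the sterol rings, by 0.95. MSMO1, which removes sterol methyl groups, was 11.05 and 11.04 in siRNF2 and 12.94 and 12.89 in siNTC, and it fell by 1.87 (SE 0.08, limma adjusted p = 1.5e-08). SC5D fell by 1.18 and DHCR7, the last step, by 1.43, from 11.32 and 11.31 to 9.88 and 9.90. SC5D under the knockdown reference stood at -0.33. CYP51A1, also a lanosterol enzyme, was 10.03 and 10.04 against 10.09 and 10.04 and did not pass the test. Outside the enzymes, the sterol transfer protein STARD4 fell by 0.97 and INSIG1, which retains the SREBP complex in the ER, by 1.52, from 8.78 and 8.62 to 7.15 and 7.22. SREBF2, the gene of SREBP2, was 9.28 and 9.36 against 9.54 and 9.61 (-0.26), and its partner SCAP was 9.02 and 9.14 against 9.24 and 9.15 (-0.11).

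The sterol genes were also compared directly with the other Polycomb knockdowns. Of the 21 genes 6 were lower in siRNF2 than in siEED (28.6%, against 0.467% of all genes) and 5 lower than in siEED+RNF2 (23.8%, against 0.239%), and 0 were called higher by limma in either test. HMGCS1 was lower than in siEED by 1.26 (SE 0.07, limma adjusted p = 1.1e-06) and lower than in siEED+RNF2 by 0.86 (SE 0.07, limma adjusted p = 8.9e-06). The siEED arrays read 11.09 and 11.13, those of siEED+RNF2 10.77 and 10.64, and the gene stood at 11.70 and 11.65 in siWDR5 and 11.60 and 11.58 in siSETD2, so the siRNF2 arrays were the lowest of the 12. DHCR7 was lower than in siEED by 0.71 and than in siEED+RNF2 by 0.82, LSS by 0.68 in both tests and INSIG1 by 0.72 and 0.74. MSMO1 was lower by 1.01 and 0.64, the second of which dropped under the fold limit without siEED+RNF2 replicate 1 (-0.56). The letters TCACNCCAC of a sterol element (GTGGNGTGA on the other strand) were found in 1 of 19 promoters of the list and in 0 of the 10 that fell, beside 162 of 14237 promoters (1.14%), which says only that this spelling is not in these windows.

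**Figure D4:**
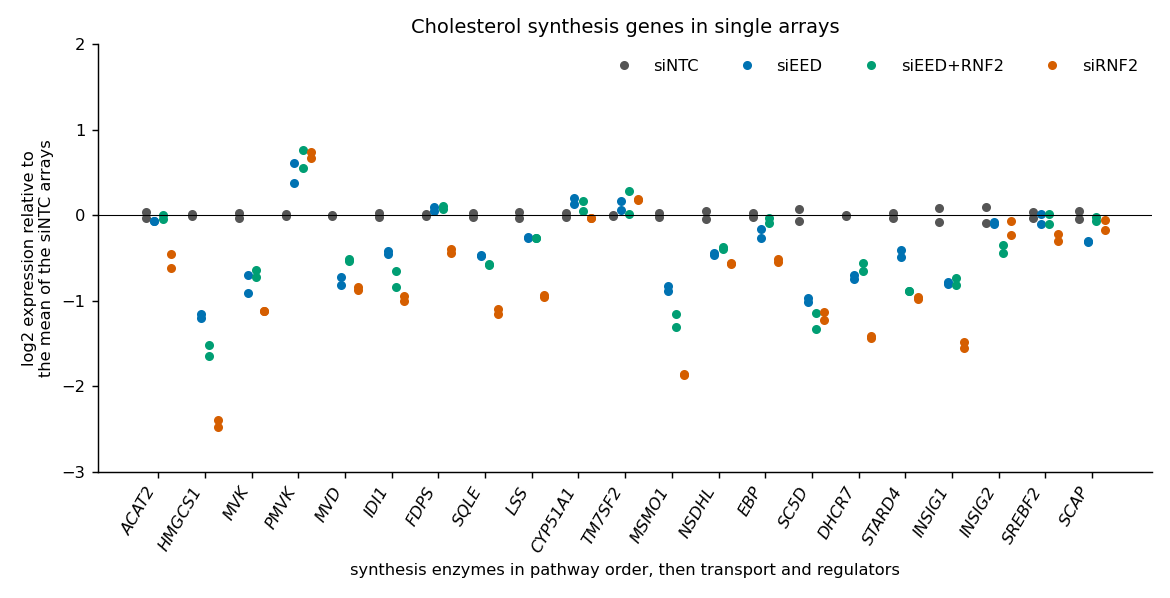
Log2 expression of 21 cholesterol genes (horizontal axis, enzymes in pathway order, then transport and regulators) in single arrays of siNTC, siEED, siEED+RNF2 and siRNF2, relative to the mean of the siNTC arrays (vertical axis). The siRNF2 points (orange) are lowest at most enzymes, down to -2.44 for the mean of HMGCS1, while PMVK lies above 0 in all 3 knockdowns.

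Fatty acid synthesis shares acetyl-CoA with the sterol pathway. Of 18 measured genes 2 fell (11.1%, against 3.81% of all genes) and 1 rose (5.56%, against 6.37%), with a median of -0.15. ELOVL6, a fatty acid elongase, fell by 0.87, from 10.59 and 10.54 to 9.64 and 9.75, and stood at -0.54 with the knockdown reference. SREBF1, the gene of SREBP1, rose by 0.72 against siNTC and stood at -0.02 with the knockdown reference, a change of sign. FASN, fatty acid synthase, was 10.42 and 10.53 in siRNF2 and 10.89 and 10.87 in siNTC (-0.40, not called), but it was lower in siRNF2 than in siEED by 0.66 (limma adjusted p = 0.00061) and than in siEED+RNF2 by 0.79 (limma adjusted p = 5.5e-05). PNPLA3, a lipase-like SREBP1 target, was lower by 0.67 and 0.78 in these tests, and ACSS2, which makes acetyl-CoA from acetate, by 0.69 and 0.89. Against siNTC PNPLA3 lay on the other side, at 9.19 and 9.16 against 8.75 and 8.52 (0.54, not called), and it passed with cluster centring (0.59) and without siNTC replicate 1 (0.65). Without siEED replicate 2 the difference of ACSS2 from siEED was -0.54. ABCA1, which exports cholesterol and is induced by LXR, rose by 1.94 against siNTC, from 6.29 and 6.43 to 8.33 and 8.27, and stood at 0.18 with the knockdown reference.

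The Polycomb machinery was examined by complex, beside 10.2% of all genes called in either direction. Of 6 measured catalytic and PCGF subunits of PRC1, 0 were called by limma, and 3 had an unadjusted p under 0.05. RING1, the paralog of RNF2 that can also ubiquitinate H2A, was 7.74 and 7.84 in siRNF2 and 7.26 and 7.37 in siNTC, a difference of 0.47 under the fold limit. Of 8 canonical subunits SCMH1, a sterile alpha motif protein, rose by 0.93, from 9.07 and 9.16 to 9.97 and 10.13, and PHC1, a polyhomeotic protein, stood at -0.56, which passed with gene centring (-0.68). Of 20 partners of variant PRC1, YAF2 rose by 0.70, which dropped to 0.57 with gene centring and 0.21 with the knockdown reference. Among 10 enzymes and cofactors that remove ubiquitin from H2A, USP16 fell by 0.88, from 10.44 and 10.48 to 9.66 and 9.50. It was higher in siRNF2 than in siEED+RNF2 by 0.88 (limma adjusted p = 1.5e-05). Of 12 PRC2 subunits EPOP, an elongin-binding partner, rose by 0.80 (4.93 and 5.05 to 5.70 and 5.88), and EED fell by 0.66. USP16 and EPOP stood at -0.45 and 0.41 with the knockdown reference and no longer passed. EED was 8.85 and 8.80 in siRNF2 and 9.55 and 9.43 in siNTC. With the knockdown reference, which contains siEED, its value was 0.09. Relative to siNTC, EED stood at -1.29 in siEED, -0.54 in siWDR5 and -0.42 in siSETD2, so it was lower in these groups as well. EZH2, the methyltransferase of PRC2, was 11.03 and 10.91 against 10.66 and 10.55 (0.36) and SUZ12 was 11.17 and 11.11 against 11.18 and 11.22 (-0.06).

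The study asked how Polycomb loss affects DNA methylation, so the methylation machinery was examined as a list. Of 17 measured genes 1 rose (5.88%, against 6.37% of all genes) and 2 fell (11.8%, against 3.81%), and 5 fell with gene centring. DNMT3L, a catalytically inactive partner of the de novo methyltransferases that is active in germ cells, was 8.37 and 8.26 in siRNF2 and 6.46 and 6.48 in siNTC, and it rose by 1.84 (SE 0.07, limma adjusted p = 8.8e-09). The siEED arrays held it at 8.59 and 8.74, and it was 8.94 and 8.91 in siEED+RNF2, 6.89 and 6.88 in siWDR5 and 6.53 and 6.66 in siSETD2, so the arrays of the 3 Polycomb knockdowns were separate from the other 6. Compared with siEED+RNF2 it was lower in siRNF2 by 0.61, which was -0.56 and not called without siRNF2 replicate 2. DNMT3B, a de novo methyltransferase, was 11.55 and 11.53 against 12.25 and 12.26 and fell by 0.71, and ZBTB33, the methyl-CpG reader Kaiso, fell by 0.73. With the knockdown reference their values were -0.49 and -0.34. DNMT1, the maintenance enzyme, was 10.47 and 10.45 against 10.52 and 10.60 (-0.10), and DNMT3A was 7.21 and 7.25 against 7.40 and 7.43 (-0.18). TET1 stood at -0.22 and TET3 at 0.39, neither past the fold limit.

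HOX genes, classic targets of Polycomb, changed at 3 of 27 measured members (11.1%), a share close to the 10.2% of all genes called in either direction, and all 3 were higher. Quantile normalization gave 5 and gene centring 2, and the median of the list was -0.01. HOXB2 was 7.86 and 7.69 in siRNF2 and 6.44 and 6.45 in siNTC, a difference of 1.33 (SE 0.11, limma adjusted p = 2.1e-06). HOXB2 was picked for its response in this comparison, so its value and its place among the 3 do not test HOX genes. Its neighbour in the cluster, HOXB3, was 5.98 and 6.04 against 5.12 and 5.16 and rose by 0.87, and HOXA2 was 5.24 and 5.29 against 4.61 and 4.66 and rose by 0.63, which gene centring brought to 0.51. HOXB1, on the other side of HOXB2, was 5.22 and 5.19 against 5.49 and 5.36, and HOXB4 was 4.80 and 4.68 against 5.09 and 5.25. HOXB9 and HOXD10 each stood at 0.56, just under the fold limit, and without siRNF2 replicate 2 (HOXB9, 0.73) or without siNTC replicate 1 (HOXD10, 0.71) they passed. With quantile normalization both stood at 0.67 and passed. Most members of the HOXA cluster were not analysed here. Tested against siEED, HOXB2 was higher in siRNF2 by 1.37 (SE 0.11, limma adjusted p = 2.8e-05), HOXB3 by 0.74 and HOXA2 by 0.62. The difference of HOXA2 dropped to 0.55 without siEED replicate 2 and to 0.57 with gene centring. Against siEED+RNF2 the differences of HOXB2, HOXB3 and HOXA2 were 0.32, 0.21 and 0.30, and none was called. The siEED arrays held HOXB2 at 6.42 and 6.39 and the siEED+RNF2 arrays at 7.65 and 7.26, so the arrays that received the RNF2 pool were the highest 4 of the 12.

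Other lists of developmental genes were read in the same way, beside 10.2% of all genes called in either direction. Of 78 further homeobox and PAX genes 1 rose, MEIS2 (7.88 and 7.80 to 8.66 and 8.52, a rise of 0.75), and 0 fell. Among 57 SOX, T-box, GATA, HAND and forkhead genes 2 rose and 1 fell, and SOX21 was 9.34 and 9.36 against 8.38 and 8.48 (0.92). Of 39 neural genes 1 rose and 3 fell. MAP2, a protein of neuronal microtubules, fell by 1.41, from 8.87 and 8.98 to 7.45 and 7.58, HES1, a Notch target, by 0.90 and ID3, an inhibitor of bHLH factors, by 0.81. Their values under the knockdown reference were -0.56, -0.52 and -0.16. Of 32 neuropeptide and granin genes 3 rose, TAC1, the processing enzyme CPE (1.06) and TAC3, the neurokinin B precursor (0.86), and 2 fell, NTS, the neurotensin precursor (8.53 and 8.35 to 6.91 and 7.08, -1.44) and SCG3, a granin (-1.06). Under the knockdown reference NTS, CPE and TAC3 stood at -0.38, 0.17 and 0.47, under the fold limit, and SCG3 changed sign (0.62).

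Genes of contractile and adhesive cells held the lowest value of the comparison. ACTG2, the gamma actin of smooth muscle, was 6.33 and 6.49 in siRNF2 and 9.25 and 9.09 in siNTC, a difference of -2.76 (SE 0.12, limma adjusted p = 1.5e-08). The siEED arrays read 8.64 and 8.70 and those of siEED+RNF2 7.71 and 7.94, while it was 6.26 and 6.36 in siWDR5 and 5.96 and 5.59 in siSETD2. With the knockdown reference its value was -0.52, and it was lower in siRNF2 than in siEED by 2.27 and than in siEED+RNF2 by 1.42. Of 36 muscle and dystrophin complex genes 5 rose (13.9%, against 6.37% of all genes) and 3 fell (8.33%, against 3.81%). MEF2C, a muscle transcription factor, fell by 1.17 and TPM1, a tropomyosin, by 0.66, and the values with the knockdown reference were -0.43 and 0.03. MYOCD, the coactivator of smooth muscle genes, rose by 1.32, from 5.13 and 5.09 to 6.37 and 6.48, and SNTB1 and SGCB of the dystrophin complex rose by 1.03 and 0.93, with SGCB at 0.45 under that reference. Among 39 fibroblast and matrix genes 3 rose (7.69%) and 3 fell (7.69%), beside 6.37% and 3.81% of all genes. LAMA1, a laminin chain of basement membranes, rose by 1.07 against siNTC but stood at -0.15 with the knockdown reference. THY1, a surface glycoprotein, fell by 1.67 and THBS2, a matrix thrombospondin, by 1.65. THY1 was 8.85 and 8.90 against 10.51 and 10.58, and THBS2 7.44 and 7.52 against 9.14 and 9.13.

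Genes set by growth factor signals moved in both directions. EGR1, an immediate early transcription factor induced through ERK, was 6.54 and 6.80 in siRNF2 and 8.82 and 8.78 in siNTC, and it fell by 2.13 (SE 0.09, limma adjusted p = 1.2e-08). Of 22 immediate early genes 4 fell (18.2%, against 3.81% of all genes) and 2 rose (9.09%, against 6.37%). FOS, an AP-1 subunit, was down by 0.78 and JUN, its partner, up by 0.85. Of 22 feedback genes of ERK 3 fell (13.6%) and 3 rose (13.6%), and 0 rose with gene centring. DUSP6, an ERK phosphatase, was 6.27 and 5.96 against 7.95 and 8.02 and fell by 1.87, and SPRY4, a Sprouty inhibitor, fell by 0.81. DUSP6 stood 0.59 above its level in siEED, which became 0.44 without siRNF2 replicate 1 and 0.56 without siEED replicate 1. With gene centring this difference was 0.55, under the fold limit.

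In the hedgehog pathway 4 of 15 measured genes rose (26.7%, against 6.37% of all genes) and 2 fell (13.3%, against 3.81%). With the knockdown reference 1 rose. HHIP, a decoy receptor that is itself a target of the pathway, was 9.0 and 8.83 in siRNF2 and 6.0 and 5.85 in siNTC, a difference of 2.99. GLI1, the target and effector, rose by 0.76 and DISP1, which releases the ligand, by 0.81, while SUFU, an inhibitor of GLI, fell by 0.68 and CDON, a coreceptor, by 0.69. PTCH1, the receptor, was 10.18 and 10.11 against 9.48 and 9.62, and its rise of 0.59 fell under the limit without siRNF2 replicate 1 (0.55) or siNTC replicate 1 (0.53), with gene centring (0.47) and with the knockdown reference (0.12). Under that reference GLI1, DISP1, SUFU and CDON stood at 0.29, 0.21, -0.13 and -0.27, and none passed. Among 51 genes of TGF-beta, activin and BMP signalling 3 rose (5.88%) and 3 fell (5.88%). They include GDF15 and INHBE, both described above, and FST, which traps activin and rose by 1.33. Among those that fell were the receptors TGFBR2, by 1.04, and BMPR2, by 0.76. TGFBR2 and BMPR2 were at -0.38 and -0.19 with the knockdown reference, under the fold limit. Of 58 WNT genes 1 rose (1.72%) and 3 fell (5.17%). Of 28 FGF ligands and receptors 2 rose (7.14%), among them FGF11, an intracellular family member, by 1.31. Of 21 retinoic acid genes 3 rose (14.3%) and 1 fell (4.76%). CRABP2, a carrier of retinoic acid, rose by 1.62 and GREB1L, a retinoic acid target, by 1.59, and both were lower in siRNF2 than in siEED, by 0.77 and 1.33. GREB1L stood at -0.40 with the knockdown reference.

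Cell cycle genes were divided by phase. Of 47 genes of mitosis 14 fell (29.8%, against 3.81% of all genes) and 0 rose, with a median of -0.35. Both siRNF2 arrays lay below both siNTC arrays at 35 of the 47, beside 39.8% of all genes. KIF20B, a kinesin of cytokinesis, was 7.63 and 7.58 in siRNF2 and 9.20 and 9.03 in siNTC, a difference of -1.51. ASPM, a spindle pole protein, fell by 1.48, CENPE, a kinetochore kinesin, by 1.44, from 9.35 and 9.30 to 7.99 and 7.77, KIF20A by 1.18 and the kinetochore scaffold KNL1 by 1.00. Before adjustment and without the fold limit, 29 were lower and 4 higher at a limma p under 0.05, and the list ranged from -1.51 to 0.32. That limit is wide, since 4075 of all 18417 genes were lower and 3852 higher without a fold limit even after adjustment. With the knockdown reference 4 of the 47 fell, and KNL1 stood at -0.25. Of the 47, 15 were higher in siRNF2 than in siEED+RNF2 (31.9%, against 3.03% of all genes). Of 40 DNA replication genes 3 rose (7.5%, against 6.37% of all genes) and 0 fell, with a median of -0.02. Gene centring turned this to 1 higher and 3 lower. PRIM1, the small primase subunit, rose by 0.96, from 10.38 and 10.35 to 11.36 and 11.29, and stood at 0.48 with the knockdown reference. Of 25 cyclins, CDKs and CDK inhibitors 6 rose (24.0%) and 1 fell (4.0%), and 2 rose and 3 fell with gene centring. CCND2, a D-type cyclin, rose by 1.04, from 10.77 and 10.74 to 11.82 and 11.76. Of 25 p53 targets 4 rose and 1 fell, with TNFRSF10B, the death receptor DR5 that is also induced by the stress factor CHOP, up by 1.34, and of 27 apoptosis genes 1 rose and 2 fell.

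Metabolic and immune genes were read against the 6.37% of all genes that rose and the 3.81% that fell. Of 34 hypoxia and glycolysis genes 3 rose (8.82%) and 1 fell (2.94%). P4HA2, a collagen prolyl hydroxylase, was 9.56 and 9.43 in siRNF2 and 7.07 and 7.02 in siNTC and rose by 2.45, while LDHA, lactate dehydrogenase, was 11.58 and 11.60 against 12.67 and 12.68 and fell by 1.08. Of 33 interferon-stimulated genes 2 rose and 0 fell. IFITM1, a membrane protein that blocks viral entry and also marks germ cells, was 13.26 and 13.32 against 11.96 in both siNTC arrays (1.33), and it stood at 0.15 with the knockdown reference. Of 15 MHC genes 0 were called in limma, with 2 upward and 3 downward at an unadjusted p under 0.05.

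Germ cell and imprinted genes gave small groups of changes. Of 41 germline and meiosis genes 7 rose (17.1%, against 6.37% of all genes) and 0 fell, and with the knockdown reference 1 rose. MEIOB, a meiotic single-strand DNA binding protein, was 5.59 and 5.69 in siRNF2 and 4.71 and 4.90 in siNTC (0.84), and MAEL, a protein of the piRNA pathway, was 5.66 and 5.59 against 4.83 and 4.84 (0.79). With the knockdown reference they stood at 0.11 and 0.33. These levels remained below the array medians in both groups. DPPA3, a gene of germ cells and naive pluripotency, was 12.96 and 12.95 against 11.46 and 11.35 and rose by 1.55, but it stood at -0.12 with the knockdown reference. Of 26 imprinted genes 1 rose (3.85%) and 2 fell (7.69%), beside 6.37% and 3.81% of all genes. DLK1, a Notch-related ligand, rose by 1.37, PEG10, a retrotransposon-derived gene, fell by 1.09 and NNAT, neuronatin, by 0.81, and with the knockdown reference PEG10 stood at -0.55 and NNAT changed sign (0.44). Of 17 cancer-testis genes 0 were called in limma, with 1 upward and 6 downward at an unadjusted p under 0.05. Of 42 replication-dependent histone genes, whose transcripts mostly lack a poly(A) tail, 6 rose (14.3%) and 1 fell (2.38%), and 1 rose with the knockdown reference. H2AC4 rose by 1.63 and H1-3 by 0.93, and both changed sign with that reference (-0.35 and -0.14). Histone genes are close copies of one another, so the array features may share signal among them.

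Markers of cells that a culture could hold besides NCCIT were read as a check, beside the 6.37% of all genes that rose and the 3.81% that fell. In a bulk sample fewer cells of a type and less RNA per cell cannot be told apart. Of 12 blood cell markers 1 rose and 0 fell, and the mean log2 level over the list was 4.87 to 4.88 in siRNF2 and 4.85 to 4.89 in siNTC. Of 21 endoderm and yolk sac markers 0 rose and 1 fell, with mean levels of 5.15 in both siRNF2 arrays and 5.20 to 5.27 in siNTC. The marker that fell was CXCR4, a chemokine receptor of definitive endoderm and other cells, from 5.99 and 6.08 to 4.92 and 5.14 (-1.01, and -0.40 with the knockdown reference). GATA6, SOX17 and AFP lay at 4.33 to 5.56 in all 4 arrays. Of 18 trophoblast markers ITGA5, a fibronectin receptor chain that many other cells express, rose by 1.83, from 6.17 and 6.29 to 8.07 and 8.06, and the list's mean was 5.49 to 5.50 in siRNF2 against 5.46 to 5.57. Of 20 mesoderm and endothelial markers 3 fell. LYVE1, a hyaluronan receptor of lymphatic endothelium, was 5.27 and 5.51 in siRNF2 and 7.82 and 7.62 in siNTC (-2.33), FLT1 and KDR, receptors of VEGF, fell by 1.12 and 1.03, and PECAM1 and CD34 lay between 4.07 and 5.11 in every array of both groups. The list's mean was 5.21 to 5.29 in siRNF2 and 5.45 to 5.58 in siNTC, and its part in the other results was not tested. None of the 20 fell with the knockdown reference, under which LYVE1 and KDR stood at -0.54 and -0.34 and FLT1 changed sign (0.45).

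A direct test of siRNF2 against siEED asked what distinguished loss of RNF2 from loss of the PRC2 subunit. Of 18417 genes 232 passed (1.26%), with 146 higher in siRNF2 (0.793%) and 86 lower (0.467%). Of the 146, 111 had also risen against siNTC, and of the 86, 42 had also fallen. The tests share the siRNF2 arrays, so these overlaps are not independent. After TAC1 and LAMP3, the largest positive differences were those of RASSF4 (1.85), the synaptic vesicle protein SV2B (1.80), GDF15 (1.51), MAL2 of apical membrane transport (1.45), the phosphate transporter SLC34A2 (1.45), the axonal motor KIF1A (1.44), HOXB2 (1.37), NIBAN1, a protein of translation control under stress (1.37), the neural adhesion molecule L1CAM (1.36) and P4HA2 (1.29). SV2B was 7.31 and 7.36 in siRNF2, 5.58 and 5.50 in siEED, 5.52 in both siEED+RNF2 arrays and 4.45 and 4.46 in siNTC, so siRNF2 stood apart from all other groups. KIF1A was 8.70 and 8.88 in siRNF2 and 7.29 and 7.15 in siNTC (1.57), beside differences from siNTC of 0.13 in siEED and 0.48 in siEED+RNF2. L1CAM rose by 1.18 against siNTC, beside -0.18 in siEED, 0.38 in siEED+RNF2 and 1.09 in siWDR5.

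At the lower end of this test, after ACTG2, lay the copper oxidase ceruloplasmin (CP, -1.79), the IGF-binding protein IGFBP5 (-1.57), the cadherin CDH9 (-1.51), the forkhead factor FOXO4 (-1.40), GREB1L (-1.33) and HMGCS1 (-1.26). CP, CDH9 and FOXO4 had fallen in siRNF2 against siNTC, by 1.40, 0.83 and 0.85, while in siEED they were higher than in siNTC, by 0.39, 0.68 and 0.55. IGFBP5, PKDCC, a secreted kinase (-1.15), LEFTY2, a Nodal inhibitor (-1.07), and LIX1 (-1.06) were not called against siNTC in siRNF2. IGFBP5 was 5.61 and 5.54 in siRNF2 and 5.11 and 5.21 in siNTC, LEFTY2 was 7.08 and 7.20 against 6.92 and 7.35, and PKDCC was 7.66 and 7.87 against 7.51 and 7.37. These 3 genes differed from siNTC by 1.99, 1.07 and 1.47 in siEED and by 1.55, 0.86 and 1.31 in siEED+RNF2. In siRNF2 the arrays of LEFTY2 lay inside the range of the siNTC arrays.

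Against siEED+RNF2, which shares the RNF2 pool, 602 genes passed (3.27%), with 558 higher in siRNF2 (3.03%) and 44 lower (0.239%). Of the 558, 101 had also risen against siNTC, 63 had fallen and 394 were not called there. The highest were TAC1 (2.42), SV2B (1.82), CLGN (1.74), LAMP3 (1.67) and MAL2 (1.35), followed by ZNF721, a zinc finger protein (1.34), HOOK1, a linker of microtubules (1.26), ESCO1, a cohesin acetyltransferase (1.23), the kinase ROCK1 (1.21) and ZBTB41 (1.20). ESCO1 was 9.61 and 9.42 in siRNF2 and 9.58 and 9.54 in siNTC, and ZBTB41 was 8.76 and 8.63 against 8.77 and 8.72, so both lay near the control level in siRNF2. They differed from siNTC by -1.28 and -1.26 in siEED+RNF2. The 44 lower genes included ACTG2 (-1.42), FOXO4 (-1.18), IGFBP5 (-1.13), PKDCC (-0.99), ACSS2, HMGCS1, DHCR7, FASN and PNPLA3. Without siRNF2 replicate 2 the count of lower genes was 84. In all, 45 genes were higher in siRNF2 than in each of siNTC, siEED and siEED+RNF2 and 14 were lower than in each. These comparisons all share the siRNF2 arrays, so they are not independent.

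**Figure D5:**
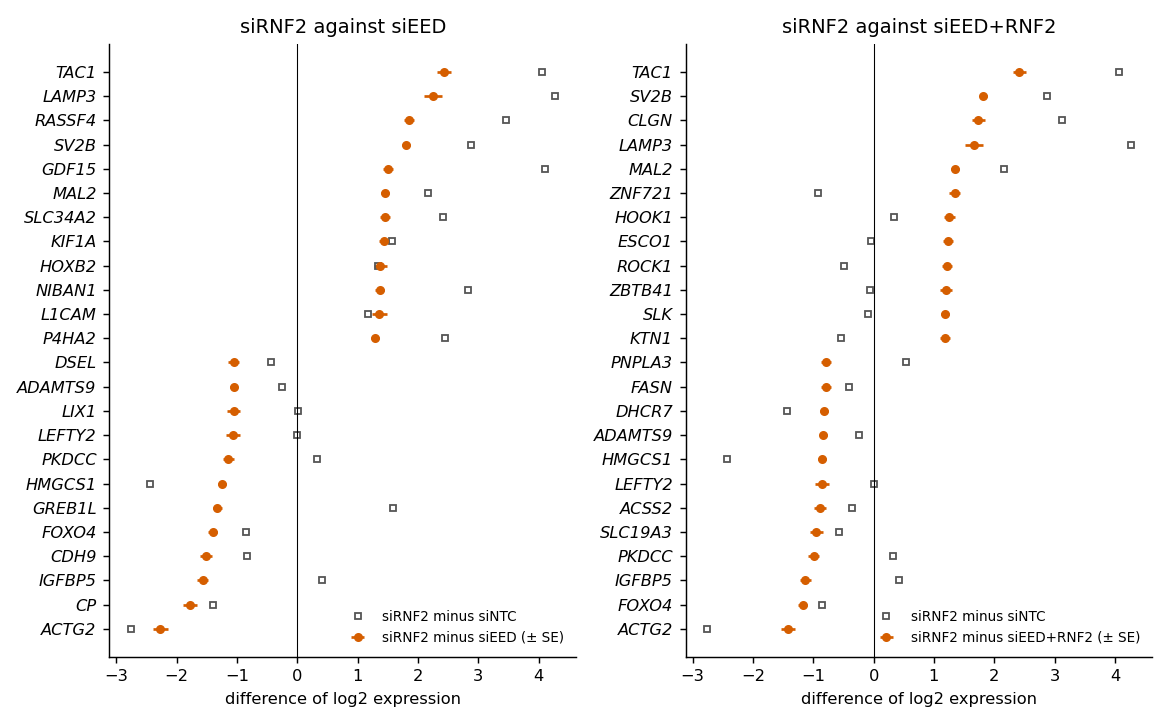
The 12 highest and 12 lowest called genes of siRNF2 against siEED (left) and against siEED+RNF2 (right), as differences of mean log2 expression (horizontal axis), where filled circles with bars are the difference and its standard error and open squares the difference of siRNF2 from siNTC. TAC1 lies at 2.43 and 2.42 in the panels and ACTG2 at -2.27 and -1.42, and genes such as ESCO1 have squares near 0.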

How the data were processed

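The authors deposited log2 values for 33297 transcript clusters and 12 arrays; per the labels' processing notes GCRMA and Partek were used, with versions and settings not given in the sources used here, so background correction and normalization preceded deposit. Arrays have no read depth, and 2 arrays per group limit the precision. Of the clusters 12083 have no gene listed here, 19460 have 1 (19429 matched by gene number to RefSeq, GRCh38.p14) and 1754 several. Clusters with 1 gene were used, the brightest of a gene's clusters standing for it (769 genes had several), which left 18417 genes with no filter on dim genes.

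A mean per group was fitted to the 12 arrays with limma 3.58.1 in R 4.3.3 (6 residual degrees of freedom, empirical Bayes moderation), and siRNF2 was contrasted with siNTC, siEED and siEED+RNF2, two-sided. The limits were a p of 0.05 after Benjamini-Hochberg adjustment across all genes and a 1.5-fold difference (0.585 on the log2 scale). Gene lists are described by counts and medians only. The comparison, its gene lists and the limits were chosen with earlier results of these data known. Named were the genes given with the comparison, the 20 highest and 20 lowest log2 fold changes, up to 8 called members of each list in each direction and up to 4 others, all members of lists of 12 or fewer, the 12 highest and 12 lowest of the other contrasts and genes the paper measured by PCR; small RNAs and unnamed reading frames were only counted. Outside this rule, DPPA4, L1TD1, FGF21, HSPA5, MVD, LSS, CYP51A1, STARD4, SREBF2, SCAP, TET1, TET3, HOXB1, GATA6, SOX17, PECAM1 and CD34 were chosen after their values were seen. In simulated data for siRNF2 against siNTC, 26 of 50 genes changed by 0.6 (log2), 47 of 50 changed by 0.8, and 50 of 50 changed by 1 or 2 were called, with 1 call among 18217 unchanged genes. The simulated noise was normal and independent between genes and arrays, with each gene's spread within groups of these arrays. It held no shift between arrays, so these counts do not cover errors from scaling or from replicates that are only technical. Alternatives were fitting only the siRNF2 and siNTC arrays, a replicate block, unmoderated variances, a variance trend, quantile normalization, centring on genes or clusters, dropping the dimmest 30% of genes, averaging clusters within a gene, testing all clusters, other limits, the knockdown reference and leaving out each array. Figures used matplotlib 3.10.9 in Python 3.11.15.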

Additional observations from a re-analysis of the deposited data

Results flagged for a closer look

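Transcript clusters outside the named genes also differed between siRNF2 and siNTC, in data the comparisons did not use. Among 12083 clusters with no gene listed here, 293 were higher and 1042 lower in siRNF2 at the same limits, and the median log2 fold change was -0.17. Among 1754 clusters that list several genes, 93 were higher and 55 lower (8.44% called). When every cluster entered the test, 1604 were higher and 1848 lower (46.5% higher). The cause of the lower values among unlisted clusters was not tested. Groups of 2 arrays were too small for a test of single outlying arrays.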

How the results depend on the processing

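The replicate numbers were not used as pairs in the main fit. Deviations of same-numbered arrays correlated at 0.00168 between siRNF2 and siNTC, 0.0886 with siEED and 0.161 with siEED+RNF2. These values do not settle whether same-numbered arrays were handled together. With the number as a replicate block 1174 genes were higher and 700 lower than siNTC, 147 and 86 against siEED, and 558 and 44 against siEED+RNF2, and it changed no call of a named gene.

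Against siNTC, higher and lower genes numbered 775 and 1253 with gene centring, 3852 and 4075 without a fold limit, 308 and 115 at a 2-fold limit and 453 and 127 with the knockdown reference, and 1848 clusters were lower when every cluster was tested. Against siEED there were 1217 and 751 without a fold limit, 23 and 15 at a 2-fold limit, and 183 lower clusters. Against siEED+RNF2 there were 2088 and 1110 without a fold limit, 64 and 4 at a 2-fold limit, 79 lower with gene centring and 99 lower clusters. Leaving out 1 array gave 1135 to 1237 higher and 694 to 794 lower than siNTC, 133 to 179 and 83 to 97 against siEED, and 467 to 694 and 55 to 84 against siEED+RNF2, with 84 reached without siRNF2 replicate 2. With the knockdown reference 54 of the genes named here no longer passed, and 11 changed sign, DPPA3 (-0.12), EED (0.089), FLT1 (0.45), GREB1L (-0.40), H1-3 (-0.14), H2AC4 (-0.35), LAMA1 (-0.15), NNAT (0.44), SCG3 (0.62), SREBF1 (-0.024) and TPM1 (0.029). Without siNTC replicate 2 AFP passed (-0.67). The cause of these shifts was not tested.

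The alternatives planned for the level of RNF2 were not run, since the gene was not analysed here. With 2 arrays per group, differences near the fold limit were often missed in simulated data. GCRMA preceded deposit, so the background correction could not be varied.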

Other observations

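Some groups of related symbols were noticed only after their values had been seen, so they are given as values alone. Of all genes 6.37% rose against siNTC and 3.81% fell. Of 6 measured APOBEC3 genes, cytidine deaminases that restrict viruses and retroelements, 4 rose in siRNF2 against siNTC and 0 fell, with a median log2 fold change of 0.81 and a range of 0.06 to 1.60, and 4 also rose with quantile normalization and with gene centring. Of 16 PCDHB genes, clustered protocadherins of neural adhesion, 0 rose and 4 fell, with PCDHB3 at -1.72 (7.29 and 6.86 in siRNF2, 8.76 and 8.83 in siNTC, and -0.56 with the knockdown reference). Of 8 LRRTM and LRRN genes, which encode leucine-rich adhesion proteins of synapses, 4 fell and 1 rose, with LRRTM3 at -1.75 (-0.36 with the knockdown reference) and LRRN3 at -1.67. Of 439 zinc finger genes with ZNF symbols 14 rose (3.19%, against 6.37% of all genes) and 32 fell (7.29%, against 3.81%) against siNTC, while 64 were higher in siRNF2 than in siEED+RNF2 (14.6%, against 3.03% of all genes) and 0 were called lower by limma. Of 115 SNORD genes 8 rose (6.96%) and 21 fell (18.3%), with 4 higher and 27 lower under gene centring.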
